A study of Homo sapiens with 8 samples.

Results

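The ZFP36 family consists in human cells of ZFP36 (also called tristetraprolin), ZFP36L1 and ZFP36L2. These 3 genes were taken out of the 60725 genes of the count table, of which 16367 were abundant enough to be tested when both NELF knockdowns were pooled. All 3 passed that filter. The family was chosen by name, but with its fold changes in these libraries known, so that the members were in effect selected on the same measured contrasts that are described below, and their own values are given as a description without a p-value.

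ZFP36 proteins carry a pair of CCCH zinc fingers that bind AU-rich elements in the 3′ untranslated regions (3′ UTRs) of short-lived mRNAs. They recruit the CCR4-NOT complex, which shortens the poly(A) tail, after which decapping and exonucleolytic decay destroy the mRNA. Their genes are induced early after mitogens and stress, the p38-MK2 kinase pathway holds the proteins inactive through 14-3-3 binding, and family members can act on their own mRNAs.

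The libraries came from HAP1, a near-haploid human leukemia-derived line, in a single clone (SC9) that stably expressed dCas9-KRAB, a catalytically dead Cas9 fused to a repressor domain that silences the promoter a guide RNA leads it to. The control group of 3 libraries received the pLB187 vector with a guide to ADAM22, the NELFE group of 3 libraries a guide to NELFE, and the NELFB group of 2 libraries a guide to NELFB, all from a lentivirus with puromycin selection, so that every group shared the clone, the dCas9-KRAB transgene, driven by an EF1-a promoter, and a guide vector. NELFE and NELFB are subunits of the negative elongation factor, which holds RNA polymerase II paused just downstream of promoters. Polyadenylated RNA was taken 144 h after transduction and read as single ends of 65 bases, giving between 22037423 and 24444185 counted reads per library.

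The AU-rich sites in the 3′ UTRs of the members themselves are shown first, because they are the element that the family reads. The full binding nonamer, UUAUUUAUU, occurred exactly 1 time in the canonical 3′ UTR of each member. It is in capitals below, with 8 transcript bases on each side, read from the GRCh38 genome by the GENCODE v44 annotation. The first line is from chr19:39409198-39409222 on the plus strand, the second from chr14:68788079-68788103 on the minus strand, and the last from chr2:43223450-43223474 on the minus strand.
ZFP36: ugacgacuUUAUUUAUUcuaauaug
ZFP36L1: cuguuggaUUAUUUAUUuuagaaau
ZFP36L2: uauuuaacUUAUUUAUUaucuugug

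The shorter heptamer UAUUUAU, which lies inside the nonamer, occurred 3 times in each of the 3 UTRs. Those UTRs are 708 bases long in ZFP36, 1871 in ZFP36L1 and 1917 in ZFP36L2. In ZFP36 the 3 heptamers lie close together, starting at UTR positions 493, 508 and 533. They are more spread in ZFP36L2, at positions 854, 902 and 1090, and in ZFP36L1, at positions 1180, 1222 and 1439. Of 19538 protein-coding genes with an annotated 3′ UTR, 6.2% held at least 3 heptamers and 8.44% held a nonamer. Among 3′ UTRs within 20% of the length of the member, at least 3 heptamers were found in 1.41% of 1990 genes for ZFP36, in 5.1% of 2550 genes for ZFP36L1 and in 4.58% of 2511 genes for ZFP36L2. All 3 members thus carry more heptamers than most genes with a 3′ UTR of their length. These matches describe letters, not binding.

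The labels were checked on the targets of the guides before any member was described. NELFE stood at 50.6, 49.5 and 47.8 CPM (reads scaled to a common library size by TMM normalization) in control cells, at 2.41, 2.38 and 2.98 CPM in the NELFE knockdown and at 61.4 and 56.6 CPM in the NELFB knockdown. NELFB stood at 74.6, 72.8 and 78.7 CPM in control cells, at 63.5, 64.2 and 64.0 CPM in the NELFE knockdown and at 3.08 and 2.76 CPM in the NELFB knockdown. Each target was lowest in every library that received its guide. Genes expected to be expressed in HAP1 (BCR, ABL1, VIM and LMNB1) summed to between 639 and 864 TPM (reads also corrected for gene length) in all 8 libraries. That sum does not by itself identify the line. Most of it is LMNB1 and VIM, and single genes differed between groups, with ABL1 at a log2 fold change of 1.05 (edgeR adjusted p = 0.0019) and LMNB1 at -0.39 (edgeR adjusted p = 0.0168) in the pooled knockdowns. In contrast, 5 markers of blood cells (PTPRC, CD33, MPO, SPI1 and CD14) together reached between 0.229 and 0.849 TPM, so that the defining blood genes were absent or nearly so. The sum of a list of 9 fibroblast and smooth muscle genes, on the other hand, was higher in the knockdowns. It reached 17.4, 13.3 and 13.3 TPM in control cells, 25.3, 19.0 and 37.2 TPM in the NELFE knockdown and 84.6 and 50.4 TPM in the NELFB knockdown. Of its genes, TAGLN (log2 fold change 3.06, edgeR adjusted p = 0.0302) and COL3A1 (5.45, edgeR adjusted p = 0.0118) rose in the pooled comparison, ACTA2 was at 2.00 (edgeR adjusted p = 0.0555) and COL1A1 at -0.13 (edgeR adjusted p = 0.636), and the fibroblast markers DCN and LUM were at 0 in every group. ACTA2 was called higher in each knockdown alone, at 0.86 with NELFE (edgeR adjusted p = 0.0278) and 2.86 with NELFB (edgeR adjusted p = 4.98e-05). The most abundant gene of this list was COL1A1 in all control libraries and TAGLN in both NELFB libraries, and 2 or 3 of its genes were at 0 in every library. The part of these fibroblast and smooth muscle genes in the results below was not tested. Within groups, replicates were compared by chi-square per degree of freedom over genes, where larger values mean less alike. Control replicate 1 stood apart, at 17.1 and 29.4 against 5.76 between control replicates 2 and 3. NELFE replicate 3 also stood apart, at 21.1 and 21.4 against 4.25 between NELFE replicates 1 and 2. The NELFB replicates were at 5.99.

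ZFP36, the founding member, was the least abundant of the family. It gave 199, 107 and 145 reads in control cells, 216, 201 and 204 reads in the NELFE knockdown and 337 and 322 reads in the NELFB knockdown. Scaled, it stood at 7.98, 4.75 and 6.32 CPM in control cells, at 8.99, 8.68 and 9.49 CPM in the NELFE knockdown and at 14.01 and 13.69 CPM in the NELFB knockdown. Every knockdown library was above every control library, both NELFB libraries were above all NELFE libraries, and the control libraries were the most scattered. The log2 fold change against control was 0.50 (SE 0.17) for NELFE, 1.12 (SE 0.19) for NELFB and 0.79 (SE 0.21) for both knockdowns pooled, which is 1.72-fold.

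ZFP36L1 had the largest difference of the family. It gave 839, 623 and 666 reads in control cells, 1451, 1398 and 1159 reads in the NELFE knockdown and 2093 and 2163 reads in the NELFB knockdown. Scaled, it stood at 33.7, 27.7 and 29.0 CPM in control cells, at 60.4, 60.4 and 53.9 CPM in the NELFE knockdown and at 87.0 and 91.9 CPM in the NELFB knockdown. The 3 groups did not overlap, and the order was control, NELFE, NELFB. The log2 fold change against control was 0.95 (SE 0.093) for NELFE, 1.57 (SE 0.10) for NELFB and 1.23 (SE 0.18) for both pooled, which is 2.35-fold.

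ZFP36L2 did not share this pattern. It gave 1427, 1324 and 1462 reads in control cells, 1181, 1134 and 1211 reads in the NELFE knockdown and 1391 and 1421 reads in the NELFB knockdown. Scaled, it stood at 57.3, 58.8 and 63.7 CPM in control cells, at 49.1, 49.0 and 56.3 CPM in the NELFE knockdown and at 57.8 and 60.4 CPM in the NELFB knockdown. The NELFE libraries were all below the control libraries, the third of them only just, while the NELFB libraries lay within the control range. The log2 fold change against control was -0.22 (SE 0.085) for NELFE, -0.018 (SE 0.095) for NELFB and -0.14 (SE 0.086) for both pooled. In bulk RNA, fewer cells that express a gene and less of its RNA per cell cannot be told apart, and this holds for every value here.

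**Figure D1:**
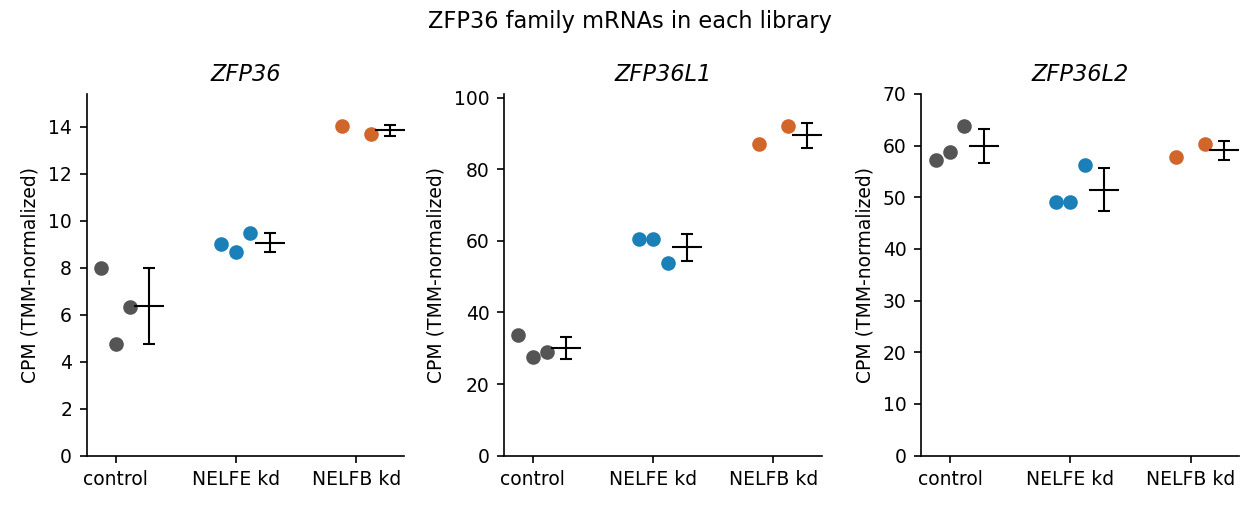
The plot of member levels by library gives TMM-normalized CPM on the vertical axis, from 0, for control, NELFE knockdown (kd) and NELFB knockdown libraries; dots are libraries and the black marks are group means with SD (n = 3, 3 and 2). ZFP36 and ZFP36L1 step up from control to NELFE to NELFB without overlap between control and knockdown libraries, while ZFP36L2 in the NELFB knockdown, at 57.8 and 60.4 CPM, lies within the control range.

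With both knockdowns pooled, 2 of the 3 members (ZFP36 and ZFP36L1) were called higher, in a comparison where edgeR called 13.3% of 16367 genes higher and 12.7% lower at a Benjamini-Hochberg adjusted p below 0.05. In the NELFE knockdown alone, 1 member (ZFP36L1) was called higher, where 7.92% of 16852 genes were called higher and 7.04% lower, and DESeq2 called ZFP36 (0.51) as well. In the NELFB knockdown alone, 2 members (ZFP36 and ZFP36L1) were called higher, where 10.6% of genes were called higher and 8.88% lower. Because the members were chosen with these contrasts known, nothing is read from these counts. The median log2 fold change of all tested genes was -0.0021 in the pooled comparison, which TMM scaling places near 0, so every fold change here is relative to the other genes. The pooled call of ZFP36 was lost without control replicate 2 (log2 fold change 0.61) and without control replicate 3 (0.78), and its NELFB call was kept without any 1 library of the control group. ZFP36L1 was called against control in every setting tried.

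Between the knockdowns, ZFP36L1 was lower in NELFE than in NELFB libraries by a log2 difference of -0.62 (SE 0.10), and ZFP36 by -0.62 (SE 0.19). The difference for ZFP36L2 was -0.20 (SE 0.095). Few genes separated the knockdowns in this fit, where 0.237% of 16852 genes were called higher and 0.0771% lower in NELFE than in NELFB libraries. The number called lower depended on the setting, being 13 here, 2 to 34 when 1 library was left out, 36 with DESeq2 and 95 with no filter. With the replicate block it was larger still, as given in the last section. The 13 include NELFE, the target of its own guide, and the genes called higher include NELFB. ZFP36L1 was among the 13, and ZFP36 was not. The ZFP36L1 call was lost without control replicate 2 (-0.62), NELFE replicate 1 (-0.65), NELFE replicate 2 (-0.65), NELFB replicate 1 (-0.66) or NELFB replicate 2 (-0.58). The fits without an NELFB replicate left 1 library in that group. Both knockdown comparisons use the same control libraries, so they are not independent of each other.

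The makeup of the family was next expressed within each library, where scaling between libraries drops out. The ratio of ZFP36L1 to ZFP36L2 reads was 0.505 ± 0.0723 (SD, n = 3) in control cells, 1.14 ± 0.158 (SD, n = 3) in the NELFE knockdown and 1.51 ± 0.0141 (SD, n = 2) in the NELFB knockdown. The control libraries reached at most 0.588 and the knockdown libraries at least 0.957. The ratio of ZFP36 to ZFP36L1 reads moved less, being 0.209 ± 0.0334 in controls (SD, n = 3), 0.156 ± 0.0172 with NELFE (SD, n = 3) and 0.155 ± 0.00849 with NELFB knockdown (SD, n = 2), and its control and NELFE ranges overlapped.

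Levels of different genes can be compared only per length. With the union of all exons as the length, control cells held 66.4 ± 2.99 TPM of ZFP36L2, 19.1 ± 2.17 TPM of ZFP36L1 and 13.2 ± 3.45 TPM of ZFP36 (SD, n = 3). No control library put these members in another order. Among 13084 protein-coding genes above 0.3 TPM in control cells, ZFP36L2 stood at the percentile 78.8, ZFP36L1 at 44.2 and ZFP36 at 35.5. The 3 members together made 98.7 ± 5.32 TPM in control cells (SD, n = 3), 114 ± 1.29 TPM in the NELFE knockdown (SD, n = 3) and 153 ± 4.74 TPM in the NELFB knockdown (SD, n = 2). ZFP36L2 made 67.4% of that sum in control cells, 50.6% with NELFE and 43.4% with NELFB knockdown, while ZFP36L1 went from 19.3% to 32.8% and 37.5%.

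The order of ZFP36L1 and ZFP36L2 in the knockdowns depends on the length used. The exon union of ZFP36L1 is 6466 bases long and its canonical transcript 3017, whereas both lengths of ZFP36L2 are 3693 bases. By canonical transcripts, ZFP36L1 made 33.4% of the family in control cells, 50.2% in the NELFE knockdown and 55.3% in the NELFB knockdown. ZFP36L2 then made 54.5%, 36.3% and 29.9%. So ZFP36L2 led in control cells by either length, and ZFP36L1 led in the knockdowns by the canonical length only. The counts do not say which ZFP36L1 transcript was made.

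The genes that carry out decay after ZFP36 proteins bind were examined by role, together with other binding proteins, regulators, targets and early genes. This made 8 lists with 146 genes in all. In the CCR4-NOT list, all 16 genes were tested and 4 were called higher and 0 lower, with a median log2 fold change of -0.024. The counts of this and the following lists stand beside 13.3% higher and 12.7% lower among all genes tested in the pooled comparison. The 4 were BTG2, TOB1, BTG1 and TOB2, which are the BTG/TOB proteins, antiproliferative adaptors that bind the deadenylase subunits. BTG2 stood at 53.4, 69.3 and 49.7 CPM in control cells, 130, 165 and 105 CPM in the NELFE knockdown and 152 and 174 CPM in the NELFB knockdown. Its lowest knockdown library was above its highest control library, and its log2 fold change was 1.34 (SE 0.17, edgeR adjusted p = 0.000601). TOB1 rose by 0.46 (adjusted p = 0.00261), BTG1 by 0.46 (adjusted p = 0.00301) and TOB2 by 0.33 (adjusted p = 0.0235) on the log2 scale in the same edgeR fit. The TOB2 call was lost without control replicate 1 (0.21), NELFE replicate 1 (0.32) or NELFB replicate 1 (0.31). The other 12 genes of the list are the subunits and TNKS1BP1, a division made after the values were seen. None of these 12 passed in edgeR or in DESeq2, and 1 had an unadjusted edgeR p below 0.05. CNOT1, the scaffold and the most abundant gene of the list at 181 TPM, had a log2 fold change of 0.067 (edgeR adjusted p = 0.454).

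Of 6 other deadenylases and poly(A)-binding proteins, 1 was called higher and 3 lower, with a median of -0.30. The cytoplasmic poly(A)-binding proteins fell, PABPC4 by 0.58 (edgeR adjusted p = 0.00199) and PABPC1, the most abundant gene of the list at 514 TPM in control cells, by 0.28 (edgeR adjusted p = 0.0074). The deadenylase PARN fell by 0.34 and the nuclear poly(A)-binding protein PABPN1 rose by 0.32. PABPC4 stood at 201, 259 and 273 CPM in control cells, 151, 164 and 184 CPM in the NELFE knockdown and 154 and 162 CPM in the NELFB knockdown, with no overlap between control and knockdown libraries. All 4 calls were kept in each of the 8 fits that left out 1 library.

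Of 16 genes for decapping and 5′ decay, 1 was called higher and 5 lower, with a median of -0.15. LSM2, a member of the LSM ring that binds deadenylated ends, fell by 0.46 on the log2 scale (edgeR adjusted p = 0.00688), LSM7 by 0.40 and LSM4 by 0.29, and the decapping enzyme DCP2 fell by 0.34. These 4 were called in all 8 fits that left out 1 library. LSM6, which fell by 0.25, and DCP1B, a decapping cofactor that rose by 0.31, were each called in 2 of them. XRN1, the 5′ exonuclease, had a log2 fold change of 0.0010 (edgeR adjusted p = 0.995).

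Of 13 genes of the RNA exosome, which degrades RNA from the 3′ end, 0 were called higher and 3 lower, with a median of -0.088. DESeq2 also called 0 higher and 3 lower, and 4 of the 13 had an unadjusted edgeR p below 0.05. EXOSC8, a ring subunit, fell by 0.52 (edgeR adjusted p = 0.00255) and was called in all 8 fits that left out 1 library. It stood at 86.6, 86.4 and 94.1 CPM in control cells, 56.8, 60.1 and 75.3 CPM in the NELFE knockdown and 57.8 and 61.7 CPM in the NELFB knockdown, so control and knockdown libraries did not overlap. EXOSC2 fell by 0.29 and the nuclear nuclease EXOSC10 by 0.26, and these were called in 2 and 4 of the 8 fits. The list count was 1 without control replicate 2, control replicate 3, NELFE replicate 1 or NELFB replicate 1, and 5 without NELFE replicate 3. EXOSC3, a cap subunit, was at -0.27 (edgeR adjusted p = 0.0749), and EXOSC9, the most abundant gene of the list at 107 TPM, at -0.17.

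Of 13 other proteins that bind AU-rich or related elements 11 were tested, and 1 was called higher and 2 lower, with a median of -0.050, beside 13.3% higher and 12.7% lower of all genes. The other 8 tested genes did not pass. TIA1, a translational repressor, rose by 0.28 (edgeR adjusted p = 0.00782) and was called in all 8 fits that left out 1 library. HNRNPD (AUF1), the most abundant gene of the list at 488 TPM, fell by 0.27 (edgeR adjusted p = 0.0357) and ELAVL1 (HuR), which stabilizes AU-rich mRNAs, by 0.24 (edgeR adjusted p = 0.0281). Both of these last calls were lost without control replicate 2, control replicate 3 or any 1 of NELFE replicates 1 and 2 and the NELFB replicates, where the list count of lower genes was 0. KHSRP, a decay factor, was at -0.15 (edgeR adjusted p = 0.141).

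Among the kinases, phosphatases and 14-3-3 proteins that act on the family, 22 of 23 genes were tested, and 1 was called higher and 3 lower, with a median of -0.047, beside 13.3% higher and 12.7% lower of all genes. MAP2K6, which activates p38, stood at 8.47, 10.2 and 11.7 CPM in control cells, 6.91, 5.70 and 6.09 CPM in the NELFE knockdown and 5.82 and 5.70 CPM in the NELFB knockdown. It fell by 0.74 on the log2 scale (edgeR adjusted p = 0.00261), and no knockdown library reached the control range. AKT1, a kinase that phosphorylates ZFP36L1, fell by 0.40 (edgeR adjusted p = 0.000739), and both calls were kept in all 8 fits that left out 1 library. PPP2R1A, the scaffold of phosphatase PP2A, fell by 0.18 and was called in 2 of those fits. The 14-3-3 gene YWHAZ rose by 0.22 (edgeR adjusted p = 0.0423) and was called in 0 of them, with adjusted p-values between 0.0527 and 0.118. MAPKAPK2, which encodes MK2, was at 0.055 (edgeR adjusted p = 0.561). DUSP1, the phosphatase that switches p38 off, was at 0.33 in the pooled comparison (edgeR adjusted p = 0.113) and rose by 0.53 in the NELFB knockdown (edgeR adjusted p = 0.0319). The most abundant gene of the list, the 14-3-3 gene YWHAE at 1180 TPM, was at -0.033.

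**Figure D2:**
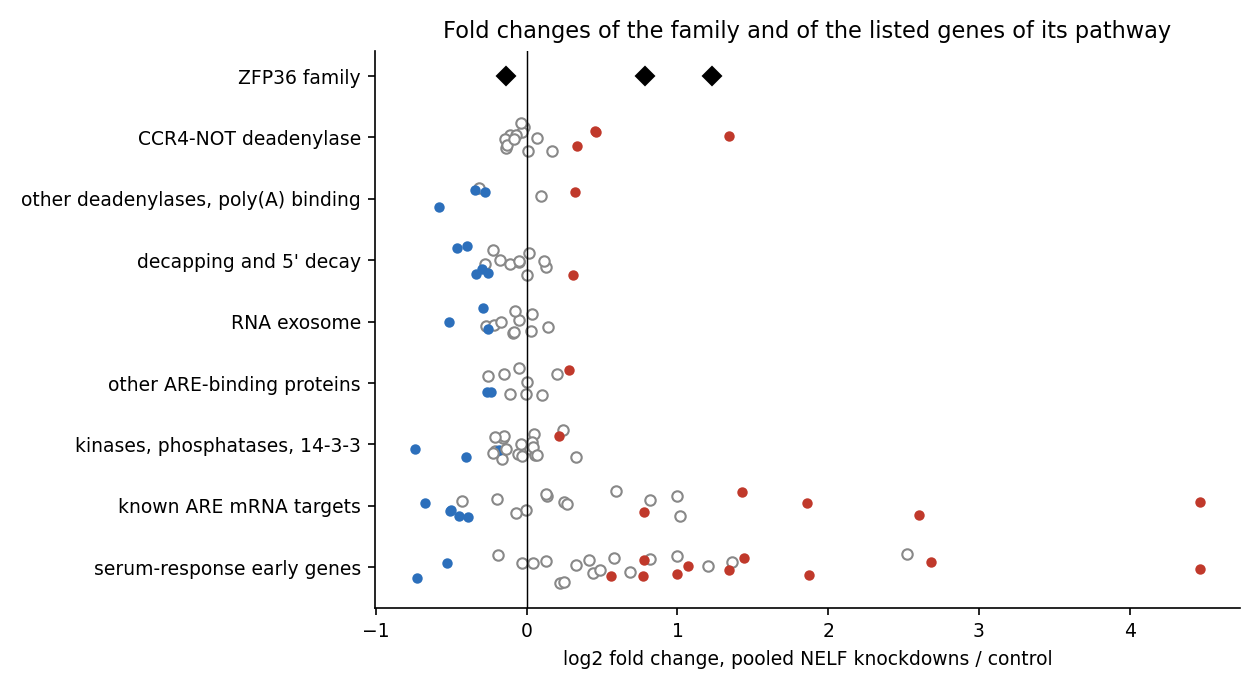
Each dot is a listed gene and its horizontal position the log2 fold change of the pooled NELF knockdowns over control. Red and blue dots were called higher and lower by edgeR, and open dots were not called. Black diamonds are the 3 family members, for which no p-value is given. The dots of the decay machinery lie mostly close to 0, with BTG2 at 1.34 and MAP2K6 at -0.74 the farthest from it, while the target and early gene lists reach 4.47 for FOS.

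Known targets of the family moved in both directions. Of 36 mRNAs listed as AU-rich targets, 22 could be tested, and 5 were called higher and 5 lower in the pooled comparison, with a median log2 fold change of 0.19. Of the 36, 32 carry at least 1 heptamer in the canonical 3′ UTR and 24 at least 3, but many of the latter are untested cytokines. Among those called higher, PTGS2 has 7 heptamers, FOS 2, CCND1 1, and JUNB and CDKN1A 0. Among those called lower, VEGFA, E2F1 and CDK6 have 3 each, and BCL2 and PLAUR 1 each. The 14 untested genes include most of the cytokines for which the family is best known, such as CSF2, IL2, IL3 and IL6. TNF, the classic ZFP36 target, had 0 reads in all control and NELFE libraries and 3 and 0 reads in the NELFB libraries, which is no more than the floor of 3 reads used here.

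The targets called higher were FOS, CCND1, CDKN1A, PTGS2 and JUNB. CCND1, which encodes cyclin D1, stood at 4.78, 4.75 and 4.92 CPM in control cells, 19.9, 13.2 and 26.1 CPM in the NELFE knockdown and 19.4 and 8.59 CPM in the NELFB knockdown. It rose by 1.86 on the log2 scale (edgeR adjusted p = 0.00278) and was called in all 8 fits that left out 1 library. CDKN1A, which encodes the cell cycle inhibitor p21, stood at 7.66, 11.01 and 5.67 CPM in control cells, 21.1, 72.4 and 25.5 CPM in the NELFE knockdown and 32.7 and 93.4 CPM in the NELFB knockdown. Its knockdown libraries were all higher, and also the most uneven, with a log2 fold change of 2.60 (edgeR adjusted p = 0.0296). In every group, the control included, replicate 2 was the highest library. PTGS2, which encodes the prostaglandin synthase COX-2, had at most 12 reads in a control library and rose by 1.43 (edgeR adjusted p = 0.0241). The CDKN1A call was lost without control replicate 1 (2.56), 2 (2.87) or 3 (2.40), as was the PTGS2 call (1.28, 1.55 and 1.47). The count of 5 fell to 3 without control replicate 1, to 2 without control replicate 2 and to 1 without control replicate 3, where CCND1 alone passed.

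The targets called lower were VEGFA, E2F1, CDK6, BCL2 and PLAUR. BCL2, which blocks apoptosis, fell by 0.50 (edgeR adjusted p = 0.00128), CDK6 by 0.39 (edgeR adjusted p = 0.00206) and VEGFA, the vascular growth factor, by 0.45 (edgeR adjusted p = 0.00285). E2F1, a cell cycle transcription factor, fell by 0.51. These 4 were called in all 8 fits that left out 1 library, while PLAUR, at -0.68, was called in 4 of them. MYC, the most abundant target at 625 TPM in control cells, was at 0.14 (SE 0.26, edgeR adjusted p = 0.741), and ranged from 656 to 1259 CPM within the control group alone.

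The early genes of the serum response, the class to which the induction of ZFP36 itself belongs, had the highest median of the 8 lists. Of 30 listed genes 29 were tested, and 10 were called higher and 2 lower, with a median log2 fold change of 0.69 beside -0.0021 for all genes. FOS, which is in both this list and the target list, stood at 4.05, 3.91 and 1.05 CPM in control cells, 33.9, 70.5 and 7.26 CPM in the NELFE knockdown and 99.3 and 123 CPM in the NELFB knockdown. No knockdown library reached down to the control range, although NELFE replicate 3 came close, and the log2 fold change was 4.47 (SE 1.1, edgeR adjusted p = 0.0308). The FOS call was lost without any 1 control library (4.75, 4.69 and 4.07), without NELFE replicate 2 (4.45) and without NELFB replicate 1 (4.28). CCN2, a secreted matrix protein, stood at 4.86, 5.15 and 5.93 CPM in control cells, 15.5, 17.6 and 34.4 CPM in the NELFE knockdown and 54.7 and 47.4 CPM in the NELFB knockdown. It rose by 2.68 (edgeR adjusted p = 0.00801). CCN2 showed the same order of groups as ZFP36L1 without overlap, but so did FOS, EGR3 and FOSB, so this order was not particular to CCN2. The transcription factor gene EGR3 rose by 1.87 (edgeR adjusted p = 0.00705) and FOSB by 1.44 (edgeR adjusted p = 0.0201). NELFE replicate 3 was the lowest knockdown library for EGR3 (4.51 CPM) and FOSB (2.37 CPM) too, but the highest NELFE library for CCN2. EGR1 was at 2.52 (SE 1.1, edgeR adjusted p = 0.144), with control libraries from 9.33 to 60.1 CPM. MCL1, the most abundant gene of the list at 156 TPM, was at 0.25 (edgeR adjusted p = 0.0823). Without 1 library, the CCN2 call was lost for control replicate 3 (2.76), the EGR3 call for control replicate 1 (1.79) and the FOSB call for any of the 3 control libraries (edgeR adjusted p between 0.0677 and 0.0886). The count of 10 was 5 without control replicate 2 or control replicate 3. Of the 2 lower genes, KLF6 was called in all 8 fits that left out 1 library and KLF2 in 3 of them.

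In each knockdown alone, the early gene list had 8 of 29 genes called higher with NELFE and 15 of 29 with NELFB, and 1 lower in each (KLF6), beside 7.92% of all genes called higher and 7.04% lower with NELFE and 10.6% higher and 8.88% lower with NELFB. These list counts were not recomputed without single libraries, and over all genes the number called higher ranged from 561 to 1620 for NELFE and from 380 to 2218 for NELFB when 1 library was left out. The target list had 3 higher and 3 lower of 22 with NELFE, and 8 higher and 4 lower with NELFB. For this list DESeq2 called 4 higher and 5 lower with NELFE, and 8 higher and 5 lower with NELFB. Between the knockdowns, 0 of the 128 tested list genes were called by edgeR, 17 had an unadjusted p below 0.05, and DESeq2 called 4 lower in NELFE than in NELFB libraries and 0 higher.

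The question whether AU-rich mRNAs moved as a class, beyond the chosen targets, was addressed over all 12985 tested genes with a canonical 3′ UTR. In the pooled comparison, 13.0% of the 8294 genes with no UAUUUAU heptamer were called higher, 371 of the 2651 with 1 heptamer, 15.5% of the 1101 with 2 and 14.8% of the 939 with 3 or more, against 13.6% of all. The shares called lower were 15.8%, 13.2%, 11.2% and 11.8%, against 14.6% of all. Median log2 fold changes stayed between -0.028 and 0.023 in all 4 classes. Genes with more heptamers have longer UTRs, with a median of 853.5 bases at 0 heptamers and 4426 at 3 or more. Among genes with a 3′ UTR of at least 1000 bases, the shares called higher were 15.1%, 14.8%, 16.0% and 15.2%, and the shares called lower 14.2%, 11.8%, 10.9% and 11.6%. The full nonamer gave 13.4% higher and 14.9% lower for 0 matches, 16.4% and 12.2% for 1, 13.0% and 9.84% for 2, and 12.5% and 10.6% for 3 or more. For genes with 3 or more heptamers, the 95% Wilson interval of the share called higher ran from 12.7% to 17.2%, which covers counting error only. In the NELFB knockdown alone, the share called higher was 10.5% at 0 heptamers (interval from 9.90% to 11.2%), 11.6% at 1, 12.9% at 2 and 13.8% at 3 or more (interval from 11.7% to 16.1%), against 11.2% of all. In the NELFE knockdown alone it was 8.03%, 8.4%, 10.1% and 9.01%, against 8.35% of all. The shares called lower were 11.5%, 8.96%, 7.93% and 8.38% with NELFB, against 10.5% of all. With NELFE they were 8.99%, 7.95%, 6.4% and 6.79%, against 8.4% of all. UTR length was not held fixed in these single comparisons, and the shares were not recomputed without single libraries. Fewer than the 1793 genes of the full NELFB comparison were called higher without NELFB replicate 1. That fit left 1 library in the NELFB group and took its spread from the other groups.

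The genes whose pattern across the 8 libraries lay closest to each member were found by the root mean square difference of log2 CPM, centred on the control mean, over 11614 protein-coding genes. For ZFP36 these were LEPR (0.159), ALDH3B1 (0.164), STK32B (0.165), TEX22 (0.168) and TUBA1A (0.168), all between control means of 2.31 and 193 CPM. For ZFP36L1 they were ZNF423 (0.128), GSN (0.138), BMERB1 (0.153), TLE4 (0.172) and TSPYL2 (0.177). ZFP36 ranked 147 of all genes by likeness to ZFP36L1 and ZFP36L1 ranked 354 by likeness to ZFP36, whereas ZFP36L2 ranked 7382 and 7003. Over the 3 group means the first 2 ranks were 236 and 684. For ZFP36L2 the closest were PLOD3 (0.0505), SNRNP48 (0.055), ZNF91 (0.0574), HNRNPH3 (0.0574) and TRIM3 (0.0577). Replicates share a group, so these values describe 3 group levels and their scatter, and over group means alone the closest gene was AHRR for ZFP36, PARD3B for ZFP36L1 and TMEM168 for ZFP36L2.

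The genes around each member were also examined, where a few calls are to be read beside the 13.3% of all genes called higher and 12.7% lower. ZFP36 lies at chr19:39406847-39409412 on the plus strand of GRCh38, with 15 other annotated genes whose start is within 100 kb. Of the 9 tested, PLEKHG2, a guanine nucleotide exchange factor, rose by 0.39 (edgeR adjusted p = 0.00463), the Mediator subunit MED29 by 0.47 (edgeR adjusted p = 0.00165) and SUPT5H, which encodes the SPT5 subunit of the pausing factor DSIF, by 0.27 (edgeR adjusted p = 0.0186), while the ribosomal protein gene RPS16 fell by 0.21 (edgeR adjusted p = 0.0213). ZFP36L1 lies at chr14:68787660-68796253 on the minus strand, where 1 of 9 neighbours was tested and 0 called by edgeR. ZFP36L2 lies at chr2:43222402-43226606 on the minus strand, where 2 of 5 neighbours were tested and 0 called by edgeR. The noncoding RNA LINC01126, which starts 604 bases from ZFP36L2 on the other strand, was at 0.48 (edgeR adjusted p = 0.149). The counts ignore strand, and GENCODE v44 places a noncoding gene over ZFP36L1 on the same strand and another over ZFP36L2 on the opposite strand that the table of counts does not list, so reads from these would be counted on the members.

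Promoters of the members were read from RefSeq (GRCh38.p14), over 250 bases before and 50 after the start site, which gave 1 entry for ZFP36, 2 for ZFP36L1 and 0 for ZFP36L2. The ZFP36 promoter was 74.7% GC, against a median of 58.7% over 35116 promoters, and held 3 matches of GGGCGG on either strand, a motif found in 45.0% of promoters. The ZFP36L1 promoters were 56.3% and 62.3% GC. The second held a cyclic AMP response element, TGACGTCA, which 1.85% of promoters hold, beginning 52 bases before its start site. It is shown in capitals because it was the only match of a stimulus-responsive motif in these 3 windows, at chr14:68793453-68793476 on the minus strand.
ZFP36L1 promoter: ggaatgagTGACGTCAcagccgcg
No window held a CArG box of the serum response factor (1.29% of promoters), an EGR1 motif written as GCGGGGGCG (5.07%) or GCGTGGGCG (0.795%), an AP-1 motif written as TGACTCA or TGAGTCA (4.95%) or TATAAA (11.5%), all searched on both strands. This speaks of letters in these windows and not of any factor.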

How the data were processed

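Per the labels and methods, the authors checked reads with FastQC 0.11.6, aligned them to GRCh38 with STAR 2.5.4a and deposited raw counts of uniquely aligned reads per Gencode 24 gene, ignoring strand, without normalization. Replicates are described as independent, and p-values measure the spread between these libraries.

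Symbols, lengths and 3′ UTRs came from GENCODE v44, which matched 97.4% of genes with reads. The robust quasi-likelihood test of edgeR 4.0.16 (R 4.3.3) was run after filterByExpr and TMM, and genes were called at a Benjamini-Hochberg adjusted p below 0.05, after the fit had been tested on simulated data. The pooled comparison set 5 knockdown against 3 control libraries, and a model of 3 groups gave each knockdown. The pooled fit counts differences between the knockdowns as spread, so a gene that differs between them can miss its call. TPM used exon-union or canonical lengths. Counting error is the only error in intervals, and reads carry no molecular identifiers. Members, lists and tests were chosen with earlier results of these data known. Named genes were, in each list, up to 4 called genes with the largest change, the most abundant gene and some fixed decay factors. EGR1, which was not called, was named besides these. The other called genes that are named (LSM6, JUNB, KLF2, KLF6 and the lower targets) were added after their values were seen. Alternatives were DESeq2 1.42.0, DESeq2 size factors, no filter, at least 10 counts per library, the replicate block and leaving out each library. Some genes of the lists and markers are not reported here and were left out of the counts.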

Additional observations from a re-analysis of the deposited data

Results flagged for a closer look

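ZFP36L1 was picked out because edgeR called it between the 2 knockdowns. Its log2 difference, NELFE minus NELFB, was -0.62 (SE 0.10), with 60.4, 60.4 and 53.9 CPM in NELFE and 87.0 and 91.9 CPM in NELFB libraries. The members were chosen with this contrast known, so the call is a description and supports nothing. It was lost in 5 of the 8 fits that left out 1 library, where the difference was -0.62 without control replicate 2, -0.65 without NELFE replicate 1 or 2, -0.66 without NELFB replicate 1 and -0.58 without NELFB replicate 2. The fits without an NELFB replicate left 1 library in that group and took their spread from the other groups. ZFP36 had the same log2 difference of -0.62 with a wider SE of 0.19 and was not called, so no difference between these members is shown. The NELFB group has 2 libraries and a guide of its own, so that the subunit, the guide and the depth of the knockdown cannot be told apart.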

How the results depend on the processing

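The log2 fold changes of the 3 members against control moved by less than the spread between replicates in all alternatives run (129 values). In the single-knockdown comparisons, leaving out 1 of 3 libraries could hardly have given another outcome. The deviation of the omitted library is itself part of that spread. ZFP36 in the NELFE comparison still ran from 0.333 to 0.702, around 0.505. The fold changes of ZFP36 and ZFP36L1 kept their direction. That of ZFP36L2 in the NELFB comparison, -0.018, turned to 0.041 with the replicate block, 0.031 without control replicate 3 and 0.0044 without NELFB replicate 1. Counts of called genes moved more. With the replicate block, 2408 genes were called higher and 2355 lower for NELFE (1334 and 1186 without it), 2312 lower for NELFB (1497), and 69 higher and 126 lower between the knockdowns (40 and 13). Replicate numbers were not taken to pair the libraries, because deviations of equal numbers correlated unevenly, at 0.296, 0.0497 and 0.481 between control and NELFE, at -0.0214 and -0.0217 between control and NELFB and at 0.126 and 0.214 between NELFE and NELFB. NELFE replicate 2 correlated better with control replicate 1 (0.252) than with control replicate 2, so not every library matched its own number best. The other unlike numbers between control and NELFE ran from -0.402 to -0.0133. The 2 NELFB libraries deviate by equal amounts in opposite directions, so their correlations say little. Whether equal numbers share an effect was not tested, and the fits without the block leave any such effect in the spread. In the NELFE comparison the block added calls for ZFP36 (0.515) and ZFP36L2 (-0.22), DESeq2 (0.51), no filter (0.50) and omission of control replicate 1 (0.70) added one for ZFP36, and omission of NELFE replicate 3 one for ZFP36L2 (-0.29). Omission of control replicate 2 lowered ZFP36 in that comparison from 0.505 to 0.333, without a call. Between the knockdowns, no filter gave 66 higher and 95 lower, DESeq2 gave 36 lower and at least 10 counts in every library gave 8 lower. Leaving out 1 library gave 1360 to 2526 higher and 1328 to 2599 lower genes in the pooled comparison, 561 to 1620 and 429 to 1503 for NELFE, 380 to 2218 and 223 to 2098 for NELFB, and 24 to 47 and 2 to 34 between the knockdowns. In the model of 3 groups, a fit without an NELFB replicate left 1 library in that group, with the spread taken from the other groups. Of the list counts, 182 stayed within 1.5 times and 42 did not. With between 107 and 337 reads per library, ZFP36 had the fewest reads of the members, and whether depth limited its calls was not tested.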
